A study of Mus musculus with 6 samples.

Results

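The Ifi200 cluster genes are interferon-inducible genes that lie next to each other on mouse chromosome 1. Here 6 of them, chosen by name, were followed: Ifi203, Ifi204, Ifi207, Ifi209, Ifi211 and Mndal. They are 6 of the 53618 named rows of the expression table. The cluster also holds Aim2 and 7 further Ifi200 genes and pseudogenes with a row of their own, 8 in all, which were used for comparison.

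Proteins of this family, called PYHIN proteins, usually join an N-terminal pyrin domain, which binds other pyrin domains, to one or more C-terminal HIN domains, which bind DNA. Type I interferon raises the transcription of many family members through ISGF3, a transcription factor complex that binds interferon-stimulated response elements in promoters. The best known member outside the 6, Aim2, is a sensor of cytosolic DNA that builds an inflammasome. Ifi204 is known for sensing DNA upstream of STING and for restraining growth in cells of the myeloid lineage, and Mndal and Ifi203 for nuclear roles in growth control. The roles of Ifi207, Ifi209 and Ifi211 are less settled.

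The libraries were bulk RNA-seq of AE9a leukemia cells, which express a truncated AML1-ETO fusion protein together with GFP from a retrovirus. All cells came from Usp18+/f UBCER-Cre donors and were transplanted, and oil or tamoxifen was injected once the recipients were sick. The 3 oil libraries are labelled Usp18+/f and the 3 tamoxifen libraries are meant to be Usp18+/Δ, since tamoxifen activates the Cre recombinase. GFP+Lin-c-Kit+ cells were sorted from spleen 3 days after the first injection, from 3 mice per group per the study's methods. Both groups derive from cells with one floxed Usp18 allele and carry the Cre transgene, which is driven in all tissues of the donor, and the AE9a oncogene. The study's methods describe its mice as young adults of both sexes, and the labels give no age per library. An effect of tamoxifen itself and an effect of the deletion cannot be told apart in these libraries. USP18 dampens the response to interferon, and the question behind the comparison is what leukemia cells transcribe when one of their Usp18 alleles is removed.

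The promoters were searched for strings of interferon-related elements and compared with each other. RefSeq gave promoter entries for 5 of the 6 genes, Ifi204 being the one without an entry. The windows below run from position -90 to position 10 around the annotated start (GRCm38.p6, 5′ to 3′ on the strand of the gene). Capitals mark the match to GAAANNGAAA, the core of an interferon-stimulated response element, and in Ifi209 the string it shares with other members. The windows are chr1:173880178-173880277 (minus strand) for Mndal, chr1:173942483-173942582 (minus) for Ifi203, chr1:173741800-173741899 (minus) for Ifi207, chr1:173913037-173913136 (minus) for Ifi211 and chr1:173630769-173630868 (plus) for Ifi209.
Mndal: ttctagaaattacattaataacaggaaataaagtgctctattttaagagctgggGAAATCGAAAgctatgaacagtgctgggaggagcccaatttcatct
Ifi203: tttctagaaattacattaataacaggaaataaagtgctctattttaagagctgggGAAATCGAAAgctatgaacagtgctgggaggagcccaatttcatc
Ifi207: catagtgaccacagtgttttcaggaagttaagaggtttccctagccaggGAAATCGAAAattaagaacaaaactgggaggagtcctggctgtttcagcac
Ifi211: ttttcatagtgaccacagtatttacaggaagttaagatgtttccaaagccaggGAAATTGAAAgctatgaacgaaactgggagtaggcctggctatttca
Ifi209: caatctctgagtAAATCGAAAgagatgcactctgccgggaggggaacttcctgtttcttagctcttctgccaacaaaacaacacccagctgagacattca

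The string GAAANNGAAA, searched on both strands, was found in the promoters of Mndal, Ifi203, Ifi207 and Ifi211 and not in that of Ifi209. In the windows printed above its first base lay at position -36 in Mndal, -35 in Ifi203, -41 in Ifi207 and -37 in Ifi211, so that the 4 matches stood at nearly one distance from the start. The Ifi203 window belongs to entry 2 of that gene, and entry 1, with another start, held no match. In Mndal the window is that of entry 1, and entry 2 held the string at position -54 on the opposite strand. Counting alternative starts, 5 of 7 entries of these genes held it, as did 5 of 7 entries of other genes of the cluster. Over all 32851 RefSeq promoters of 300 bases the share was 3.44%. The string TTCNNNGAA, the gamma-activated type, was in 0 of the 7 entries and in 8.30% of all promoters. Ifi209 shared the string AAATCGAAA with Mndal, Ifi203 and Ifi207, with its first base at position -78 in Ifi209. This string overlaps the longer one and was chosen after the promoters were seen. It was in 41 of all promoters, or 0.125%, and 8 of those 41 belonged to genes of the cluster. Over the 300 bases of the entries used for the windows, Mndal and Ifi203 were identical at 94% of positions and Ifi207 and Ifi211 at 87%. Paralogs share sequence by descent, so these matches are not independent of each other, and a match describes letters, not a bound site.

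Mndal was the most abundant of the 6 genes. Mndal (ENSMUSG00000090272.8, chr1:173849126-173942491, minus strand, GENCODE vM21 on GRCm38) had normalised read counts, which are reads divided by one size factor per library, of 184, 204.5 and 188 in oil 1, 2 and 3. The libraries labelled tamoxifen 1, 2 and 3 had 71.6, 249 and 112. Tamoxifen 2 lay above and tamoxifen 1 and 3 below all 3 oil libraries, so the groups overlapped. The means were 192 ± 10.7 (SD, n = 3) in oil and 144 ± 92.8 (SD, n = 3) in tamoxifen. The log2 fold change, tamoxifen minus oil on the log2(value + 1) scale, was -0.61 ± 0.44 (standard error), with a 95% interval from -1.67 to 0.46. Its adjusted p over the 12298 genes tested was 0.666 by limma.

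Ifi204, the DNA sensor (ENSMUSG00000073489.6, chr1:173747293-173766943, minus strand), had 108.7, 86.8 and 80.8 normalised read counts in oil and 30.7, 121 and 60.9 in tamoxifen 1, 2 and 3. As in Mndal, tamoxifen 2 was the highest library, and tamoxifen 3 and then tamoxifen 1 were the lowest. The mean was 92.1 ± 14.7 (SD, n = 3) in oil and 70.9 ± 46.1 (SD, n = 3) in tamoxifen. The difference in log2, tamoxifen minus oil, was -0.57 ± 0.49 (standard error), with a 95% interval from -1.76 to 0.61 and an adjusted p of 0.666 by limma.

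Ifi209 (ENSMUSG00000043263.13, chr1:173630917-173647928, plus strand), the only one of the 6 on the plus strand, had 56.6, 46.3 and 37.1 normalised read counts in oil. In tamoxifen 1 it had 2.56, which was 2 reads, and in tamoxifen 2 and 3 it had 70.7 and 53.7. Tamoxifen 1 thus stood far below every other library, and tamoxifen 3 lay inside the oil range. It averaged 46.7 ± 9.73 (SD, n = 3) in oil and 42.3 ± 35.5 (SD, n = 3) in tamoxifen. This made a log2 fold change of -0.97 ± 1.11 (standard error), at an adjusted p of 0.688 by limma. Since 2 reads are under the floor of 3 reads used here, the size of this fold change is uncertain. The floor in tamoxifen 1, a normalised read count of 3.83, was itself below the 37.1 to 56.6 of oil. Without tamoxifen 1 the log2 fold change was 0.41, with a 95% interval from -0.19 to 1.01 and an adjusted p of 0.572 from limma.

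Ifi203 (ENSMUSG00000039997.16, chr1:173920407-173942672, minus strand) was low, with 23.4, 30.9 and 14.9 normalised read counts in oil and 10.2, 41.4 and 12.7 in tamoxifen. Again tamoxifen 2 lay above and tamoxifen 1 and 3 below all oil libraries. It averaged 23.0 ± 8.01 (SD, n = 3) in oil and 21.5 ± 17.3 (SD, n = 3) in tamoxifen. Its log2 fold change of -0.30 ± 0.59 (standard error) had an adjusted p of 0.797 by limma. Its first exon shares 37 bases with Mndal on the same strand, and reads in those bases could be assigned to either gene.

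Ifi207 and Ifi211 were at or near the limit of counting, and neither had a value of 10 in 3 libraries, the filter for the test. Ifi207 (ENSMUSG00000073490.11, chr1:173723427-173741747, minus strand) had 3, 0 and 1 reads in oil and 1, 8 and 10 in tamoxifen, or 4 against 19 reads in all. Tamoxifen 2 and 3 were above every oil library and tamoxifen 1 was within the oil range. An exact two-sided permutation test of its 3 against 3 values gave p = 0.2. With no filter on low values its log2 fold change was 1.62 with an adjusted p of 0.713 from limma, and DESeq2 on the recovered reads gave an adjusted p of 0.840. Ifi211 (ENSMUSG00000026536.9, chr1:173896345-173913046, minus strand), whose row carries the older name Mnda, had 0 reads in all 3 oil libraries and 3, 1 and 1 in tamoxifen. Both groups lay at or under the floor of 3 reads per library, so no fold is given. An exact two-sided permutation test of its values gave p = 0.1, the smallest possible with 3 against 3, on 0 against 5 reads in all. With no filter on low values, 1111 of 24247 genes had an unadjusted p under 0.05 by limma. Ifi211 was among them, with an unadjusted p of 0.018 and an adjusted p of 0.713 from limma. Of its 150-base stretches of exon, 46.4% also occur in Ifi205, Ifi204 or Mndal, and those few reads could belong to a paralog. In Ifi209 the share was 9.28%, with Ifi214, in Ifi204 6.77%, with Ifi211, and in Mndal, Ifi203 and Ifi207 it was 1.61%, 0.83% and 0%.

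**Figure D1:**
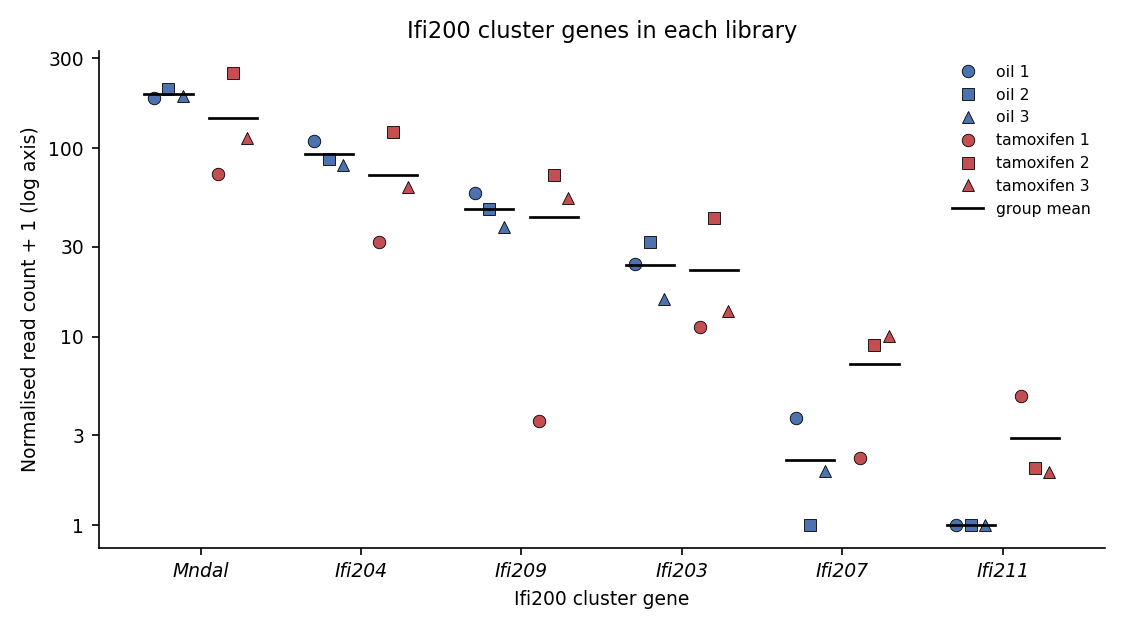
Normalised read count plus 1 (log axis) of the 6 Ifi200 cluster genes in each library, with blue points for oil, red for tamoxifen, symbols for replicates 1 to 3 and bars for group means. In Mndal, Ifi204, Ifi209 and Ifi203 tamoxifen 2 is the highest and tamoxifen 1 the lowest of the 6 libraries, while Ifi207 and Ifi211 lie near 0.

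None of the 6 genes passed the test. Of the 12298 genes tested, limma called 0 (0%) in either direction at an adjusted p under 0.05, and 550 had an unadjusted p under 0.05, none of them an Ifi200 cluster gene. edgeR on the recovered reads also called 0 genes, with 594 at an unadjusted p under 0.05, and DESeq2 called 69 higher and 2 lower (0.437% and 0.0127%), with no Ifi200 cluster gene among them. All 4 of the genes tested had a log2 fold change below 0, as had 51.6% of all genes, and their median was -0.59 against -0.017 for all genes. In 0 of the 4 did the groups not overlap, against 7.86% of all genes higher and 9.69% lower. The count tests on recovered reads gave differences nearer to 0. By DESeq2 the log2 fold change was -0.42 for Mndal, -0.37 for Ifi204, -0.14 for Ifi209 and -0.095 for Ifi203, with adjusted p of 0.840 to 0.972. By edgeR the same genes had -0.40, -0.36, -0.10 and -0.078, with adjusted p of 0.732 to 0.955. In exact two-sided permutation tests, which cannot go below 0.1 with 3 against 3, p was 0.4 for Mndal, 0.5 for Ifi204, 0.9 for Ifi209 and 0.7 for Ifi203.

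The size of the difference depended on tamoxifen 1. Tamoxifen 1 stood apart from the other 5 over all genes, with a median correlation to them of 0.913 against 0.981 to 0.990 for the others. It was the lowest of the 6 libraries in 4 of 4 Ifi200 cluster genes tested, as it was in 41.6% of all genes. Without it the log2 fold change was -0.20 for Mndal, -0.086 for Ifi204, 0.064 for Ifi203 and, as given above, 0.41 for Ifi209. The median of the 4 was then -0.011, against -0.021 for all genes, and no adjusted p from limma was under 0.572. For Mndal the 95% interval without tamoxifen 1 ran from -0.83 to 0.43, and for Ifi204 from -0.74 to 0.56.

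**Figure D2:**
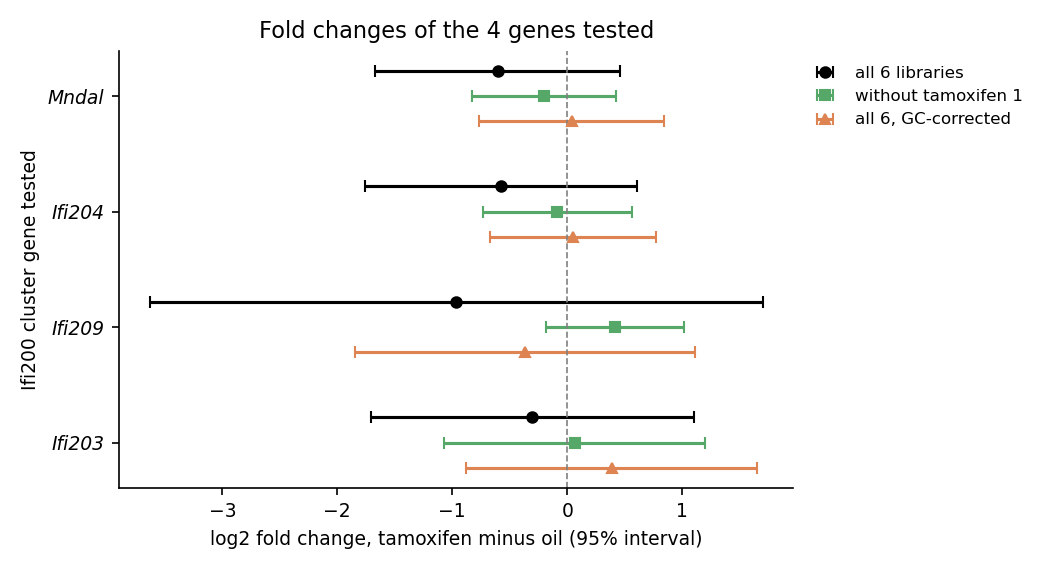
Log2 fold change, tamoxifen minus oil, of the 4 Ifi200 cluster genes tested, with 95% intervals, from all 6 libraries (black), without tamoxifen 1 (green) and from all 6 after GC correction (orange). Each interval includes 0, and that of Ifi209 is narrowest without tamoxifen 1.

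The exons of these 4 genes are poor in G and C, at 38.8% in Ifi203, 39.4% in Mndal, 39.7% in Ifi204 and 39.9% in Ifi209. Tamoxifen 1 was low across AT-rich genes as a whole. It was the lowest library in 93.7% of the 318 tested genes with 38% to 40% GC. Relative to the median of the other 5 libraries, these 318 genes had a median of -1.88 (log2) in tamoxifen 1, with quartiles of -2.69 and -1.18. Mndal was at -1.38, Ifi204 at -1.47 and Ifi203 at -1.12, close to or inside those quartiles, and Ifi209 at -3.94 was below them. When each library was corrected for GC content by a loess curve that used no group labels, tamoxifen 1 was the lowest library in 32.0% of all genes and, among these 4, in Ifi209 alone. After the correction Mndal stood at a normalised read count of 274 in tamoxifen 1 against 179 to 196 in oil, and Ifi203 at 46.0 against 14.7 to 29.4, so that tamoxifen 1 turned from the lowest to the highest library in both. Ifi204 stood at 114 in tamoxifen 1, next to 116 in tamoxifen 2 and above 80.1 to 106 in oil. Ifi209 stayed below the 36.8 to 55.2 of oil in tamoxifen 1, but its value there, its deviation and its corrected fold change rest on 2 reads, under the floor. The corrected log2 fold changes were 0.037 for Mndal, 0.051 for Ifi204, 0.39 for Ifi203 and -0.36 for Ifi209, with no adjusted p under 0.776 from limma.

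**Figure D3:**
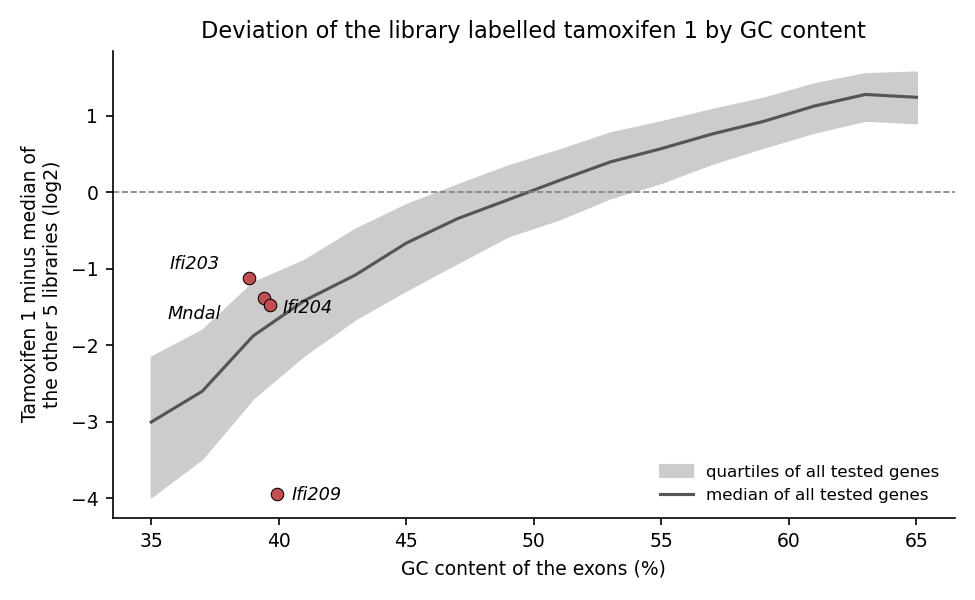
Deviation of tamoxifen 1 from the median of the other 5 libraries (log2) against the GC content of a gene's exons, with the median (line) and quartiles (grey) of all genes tested in bins of 2% and the 4 Ifi200 cluster genes as red points. Ifi203, Mndal and Ifi204 lie near the curve of all genes and Ifi209 at -3.94 lies below it.

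The 2 other tamoxifen libraries disagreed with each other. Tamoxifen 2 was the highest of all 6 libraries in 4 of 4 Ifi200 cluster genes tested, against 8.42% of all genes, and so lay above all 3 oil libraries in each, against 22.9%. Tamoxifen 3 lay below all oil libraries in Mndal, Ifi204 and Ifi203, against 37.9% of all genes. In these 3 of 4 genes both held at once, against 4.11% of all genes. These patterns were looked for after the values were seen. Without tamoxifen 2 the groups of Mndal, Ifi204 and Ifi203 did not overlap, the tamoxifen libraries being lower, as in 21.2% of all genes at that setting. The log2 fold changes were then -1.09 for Mndal, -1.06 for Ifi204, -0.90 for Ifi203 and -1.75 for Ifi209, all with an adjusted p of 0.419 to 0.429 from limma. The unadjusted p, from limma's fit across all genes, was 0.0093 for Mndal and 0.036 for Ifi204. At that setting 1073 of the 12298 genes tested had an unadjusted p under 0.05.

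Summed over the 6 genes, the libraries held 418, 382 and 347 reads in oil and 94, 486 and 274 in tamoxifen. As CPM, that is scaled to the reads of named genes, these were 17.6, 17.1 and 14.7 in oil and 4.90, 22.6 and 11.9 in tamoxifen. The group thus took its lowest and its highest share of the library in 2 libraries of the same label. Mndal made up 49.0% to 58.5% of it in oil and 44.9% to 59.6% in tamoxifen, and Ifi204 23.6% to 28.9% and 24.5% to 25.5%. Together these 2 genes made up 69.3% to 85.1% in every library, and the sum is mainly a reading of them. In bulk samples fewer cells of a type and less RNA per cell cannot be told apart.

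Levels were compared between genes only per length, as RPKM, the reads scaled to exon length and to the reads of named genes. In oil the level was 2.46 ± 0.138 (SD, n = 3) for Mndal, 1.20 ± 0.205 for Ifi204, 0.610 ± 0.134 for Ifi209, 0.159 ± 0.0562 for Ifi203 and 0.0164 ± 0.0188 for Ifi207, with Ifi211 at 0. Neighbours in this order did not overlap in oil from Mndal down to Ifi207. In tamoxifen the levels were 1.81 ± 1.21 for Mndal, 0.912 ± 0.615 for Ifi204, 0.556 ± 0.467 for Ifi209, 0.146 ± 0.121 for Ifi203 and 0.0835 ± 0.0598 for Ifi207, and each of these neighbours overlapped the next. Within a library the order Mndal, Ifi204, Ifi209, Ifi203 held in 5 of 6, and in tamoxifen 1 Ifi209 at 0.0294 lay below Ifi203 at 0.0622. In tamoxifen 3 Ifi207 at 0.126 lay above Ifi203 at 0.0903.

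The remaining genes of the cluster, which spans 680.9 kb from 173350879 to 174031810 on chromosome 1, were for the most part at or near 0. Aim2 was the exception and the most abundant gene of the cluster, at 5.24 ± 0.426 RPKM (SD, n = 3) in oil. Its normalised read counts were 356, 406 and 427 in oil and 146, 395 and 401 in tamoxifen, a log2 fold change of -0.47 with an adjusted p of 0.666 from limma, and of 0.010 without tamoxifen 1. Aim2 shared the low value in tamoxifen 1 but not the split between tamoxifen 2 and 3. Ifi213 had 18.0, 0.965 and 4.64 in oil and 2.56, 14.1 and 7.28 in tamoxifen, with the groups overlapping. Ifi208 had 0, 2 and 0 reads in oil and 3, 2 and 3 in tamoxifen, all at or under the floor of 3 reads. As normalised read counts, every tamoxifen library (2.02 or more) was above every oil library (1.93 or less) in Ifi208. Of all genes tested, 7.86% were higher without overlap. In reads the groups of Ifi208 met, since oil 2 and tamoxifen 2 both had 2, and only the size factors set them apart. An exact two-sided permutation test of Ifi208 gave p = 0.1, the smallest possible. Ifi202b, Ifi205 and Ifi206 had at most 2 reads in any library, and Ifi214 had 0 in all 6. Counts of 0 allow up to 3 reads per library, or normalised read counts of 2.69 to 3.83, for counting error only.

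**Figure D4:**
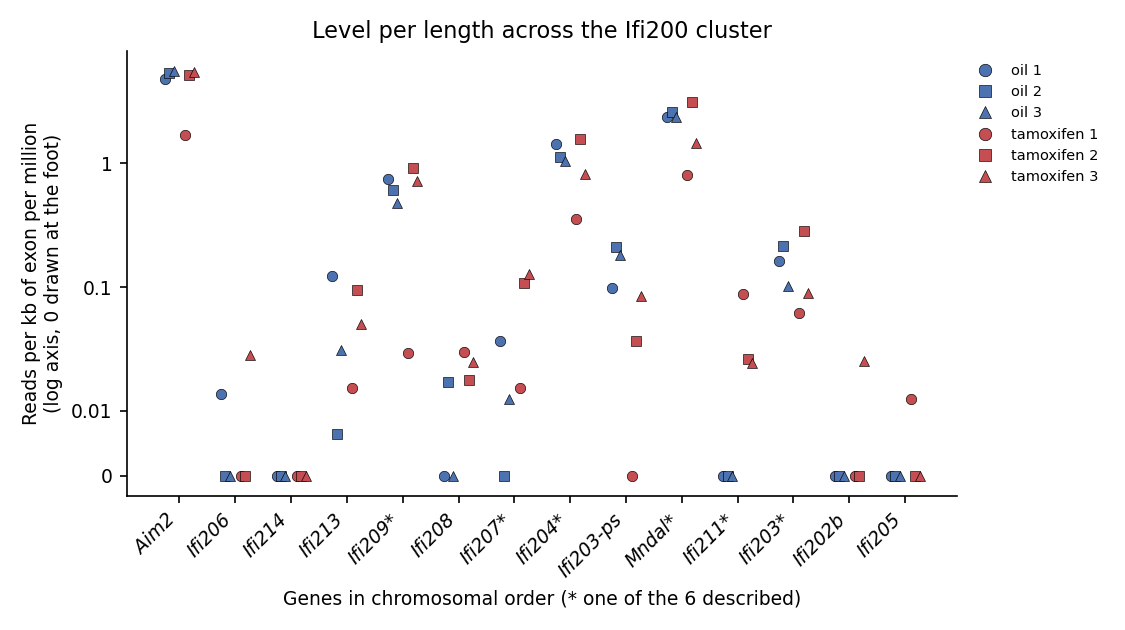
RPKM (log axis, with 0 drawn at the foot) of the 14 Ifi200 cluster genes in chromosomal order, with blue points for oil, red for tamoxifen and symbols for replicates 1 to 3. Aim2, Mndal, Ifi204 and Ifi209 carry most of the signal, with Aim2 at 5.24 and Mndal at 2.46 on average in oil.

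In 2 pseudogenes of the cluster every tamoxifen library was below every oil library. Ifi203-ps, an unprocessed pseudogene between Ifi204 and Mndal, had normalised read counts of 5.39, 11.6 and 10.2 in oil and 0, 2.02 and 4.55 in tamoxifen. With 29 reads in oil against 7 in tamoxifen the gene did not pass the filter, and an exact two-sided permutation test gave p = 0.1, the smallest possible. Gm7897, also an unprocessed pseudogene, overlaps the span of the cluster. It had 23.4, 28.9 and 32.5 in oil and 3.83, 8.08 and 10.003 in tamoxifen, without overlap between the groups, as in 9.69% of all genes. The log2 fold change of Gm7897 was -1.89 ± 0.42 (standard error) at an adjusted p of 0.666, and without tamoxifen 1 it was -1.54 with an adjusted p of 0.143, both from limma. Its exons have a GC content of 36.1%, and after GC correction the log2 fold change was -0.98. Cadm3, an adhesion molecule gene that also overlaps the span of the cluster, had 158, 158 and 135 in oil and 86.9, 207 and 202 in tamoxifen.

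None of the tested neighbours of the cluster named here passed the test by limma. Ackr1, Fcer1a, Olfr1404, Dusp23 and Gm37125 before it had log2 fold changes of -0.27, -0.32, 0.39, 0.32 and 0.82, and Fmn2, Fh1, Kmo and Chml after it 0.70, -0.20, -0.55 and -0.76. Tamoxifen 1 was the lowest library in Ackr1, Fcer1a, Olfr1404, Fh1 and Chml, as in the 4 Ifi200 cluster genes.

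The genes whose values over the 6 libraries were most like the mean of the 4 Ifi200 cluster genes were Cdh9 (Pearson r = 0.993), Gm26542 (0.992), A930024E05Rik (0.987), Gm20667 (0.986) and Dnajc18 (0.985). These are descriptions over 6 libraries that share one outlying library, and carry no p. Cdh9 had 74.6, 72.4 and 56.6 normalised read counts in oil and 15.3, 87.9 and 40.9 in tamoxifen, with the same highest and lowest library. Dnajc18 had 346, 327 and 325 in oil and 174, 390 and 262 in tamoxifen.

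Among other interferon-stimulated genes most values were higher in tamoxifen. Of 36 type I interferon-stimulated genes listed, 30 were tested and 28 had a log2 fold change above 0, with a median of 0.79. In 21 of the 30 the tamoxifen libraries were all above the oil libraries and in 0 all below, against 7.86% and 9.69% of all genes. By limma, no gene of the list passed the test over all 6 libraries, and 8 did without tamoxifen 1, all of them higher (0.309% of all genes were called higher and 0.0244% lower). DESeq2 calls are not given for this list. Ifit1, which binds foreign RNA, had 32.3, 39.6 and 25.1 in oil and 298, 226 and 236 in tamoxifen, a log2 fold change of 2.95 with an adjusted p of 0.0950 over all libraries and 0.0018 without tamoxifen 1, both from limma. Mx1, an antiviral GTPase, and Rsad2, the antiviral enzyme viperin, had log2 fold changes of 2.95 and 2.89, that of Rsad2 being uncertain since its oil values, 2.89 at most, were at or under the floor of 3 reads. Their adjusted p was 0.426 in both over all libraries and 0.043 and 0.097 without tamoxifen 1, from limma. The difference between these genes and the Ifi200 cluster genes was not tested.

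**Figure D5:**
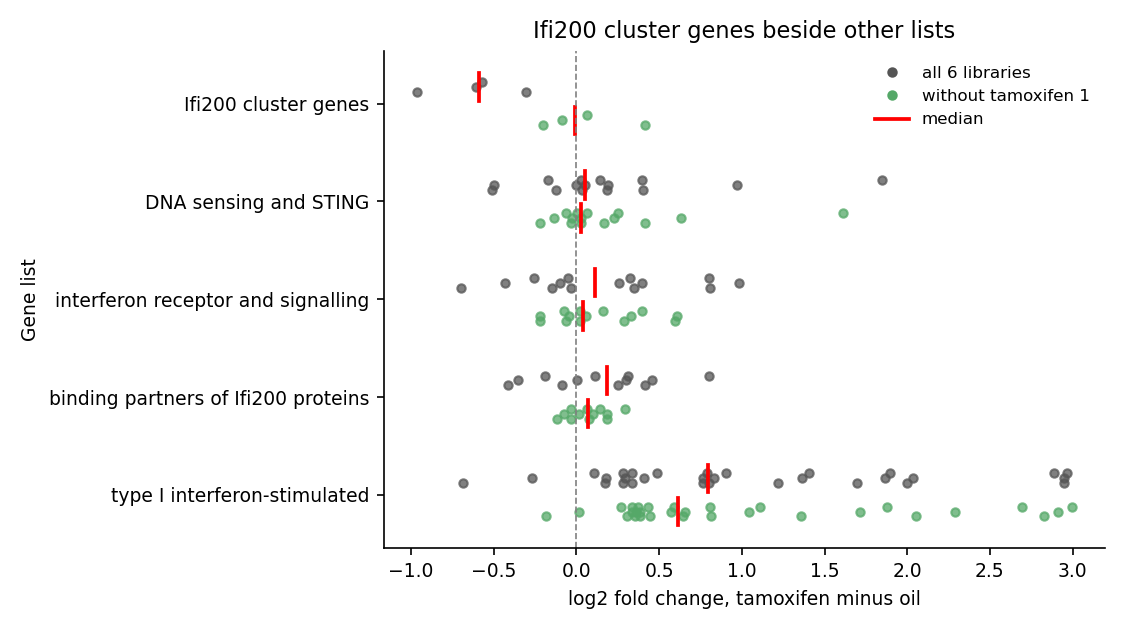
Log2 fold change, tamoxifen minus oil, of each tested gene of 5 lists, from all 6 libraries (grey) and without tamoxifen 1 (green), with the median of each list in red. The median of the 4 Ifi200 cluster genes is -0.59 over all libraries and -0.011 without tamoxifen 1, and that of the type I interferon-stimulated genes is 0.79 and 0.62.

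Upstream of the interferon-stimulated genes, 14 of 16 receptor and signaling genes were tested, with a median log2 fold change of 0.11, and 4 were higher and 1 lower without overlap, against 7.86% and 9.69% of all genes. Usp18, the targeted gene, went against its label. It had 217, 214 and 176 normalised read counts in oil and 477, 329 and 284 in tamoxifen, a log2 fold change of 0.81 with an adjusted p of 0.666 from limma. Usp18 is itself interferon-stimulated, and its count does not tell transcripts of the intact allele from those of the floxed one. Every direction given here is between libraries as labelled. Socs1, an inhibitor of JAK kinases, and Irf9, the DNA-binding part of ISGF3, had log2 fold changes of 0.98 and 0.35, and Socs1 was past the threshold without tamoxifen 1 (adjusted p = 0.043, limma).

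DNA sensing through STING, the pathway in which Ifi204 is placed, was covered by 18 genes, of which 15 were tested. The median log2 fold change was 0.052, with 2 genes higher and 1 lower without overlap, against 7.86% and 9.69% of all genes. Irf7, the interferon-induced factor that drives interferon genes, had 255, 350 and 245 in oil and 1394, 890 and 824 in tamoxifen. Its log2 fold change was 1.84 with an adjusted p of 0.426 over all libraries and 1.61 with an adjusted p of 0.0028 without tamoxifen 1, from limma. The kinase genes Ikbke and Tbk1 had 0.97 and -0.50. Ifnb1 and Trex1, which encode interferon beta and a DNA exonuclease, had 0 reads in all 6 libraries. Of 12 genes for proteins known to bind members of this family, such as cell cycle regulators, all were tested. None passed by limma and the median was 0.18. Id1, Rbl1 and Ubtf, which had the smallest unadjusted p of that list, had 0.80, -0.41 and 0.42, and after leaving out tamoxifen 1 their adjusted p from limma was 0.706 to 0.713.

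The libraries held 19164795 to 23770537 reads of named genes. Kit, the sort marker, was at 8990, 8043 and 7512 normalised read counts in oil and 4687, 7749 and 10976 in tamoxifen. Of 7 leukemia and progenitor markers all were detected. Over the 6 libraries Runx1 was at 9996 to 12791, Myb at 3097 to 6692 and Cd34 at 201 to 1052. Ptprc, which encodes CD45, was at 0.898 to 8.08. The granule genes Mpo and Elane were at 0 to 4.64 in oil and at 6.39 to 20.2 in tamoxifen. Ptprc, Mpo and Elane, defining markers of white and myeloid cells, were thus near 0. The 7 erythroid markers summed to 48696 to 68128 in oil and 53659 to 86112 in tamoxifen. PYHIN genes are also expressed by macrophages, B cells and other immune cells. The 13 macrophage markers, none at 0 in every library, summed to 119.6 to 274.9 in oil and 311.0 to 417.3 in tamoxifen, with 5 of 9 tested markers higher without overlap, against 7.86% of all genes. In the same order, 8 B cell markers summed to 28.0 to 56.6 and 69.1 to 196.8 (Ms4a1 and Cd22 among those at 0) and 9 neutrophil markers to 15.3 to 28.0 and 40.01 to 70.7 (Ly6g at 0). The 8 dendritic cell markers summed to 135.6 to 190.1 and 128.3 to 190.4 (Clec9a and Cd209a at 0), and the 12 T and NK cell markers to at most 8.08 (6 of them, including Cd3e, at 0). Ifi207 and Ifi211 had most of their reads in the group with the higher macrophage, B cell and neutrophil sums, and the part of those cells in their reads was not tested.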

How the data were processed

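Bulk RNA-seq of 6 libraries, 3 oil and 3 tamoxifen, was analysed with groups from the labels. The submitters' processing notes name mm10, STAR and DESeq2. Strand setting and annotation are not given in the sources used here. The values the authors deposited are a normalized signal, reads per gene divided by a size factor. In every library 100% of values were whole multiples of the smallest one (tolerance 0.01 reads), which recovered 19172471 to 23785143 reads. Rows without a name (1832 of 55450, 0.0400% to 0.0614% of reads) were left out. The rows Mnda and Pydc3 are Ifi211 and Ifi208 by RefSeq synonym. Coordinates and GC content are from GENCODE vM21.

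limma 3.58.1 (R 4.3.3) was run with a mean-variance trend on log2(value + 1), two-sided, for genes that reached 10 in 3 or more libraries, with Benjamini-Hochberg adjustment and a threshold of 0.05. This scale understates fold changes of low genes. Alternatives were edgeR 4.0.16, DESeq2 1.42.0 and voom on recovered reads, pseudocounts of 0.5 and 5, no filter, other scalings, library weights, a replicate block, a GC correction (loess, span 0.3) and each library left out. edgeR and DESeq2 without tamoxifen 1 were chosen after seeing the data. On simulated data for this comparison (12298 genes, dispersion 0.05) limma recovered 97.5% of 200 genes changed by 2 on the log2 scale, with 10 false calls. The real libraries, tamoxifen 1 above all, vary in ways not simulated. Floors cover counting error only, as PCR duplicates could not be told from separate molecules.

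The genes and lists were chosen with earlier results of these data known. Named were the 6 genes, the other cluster genes, the 5 nearest tested genes on each side, the 5 most alike genes, the 3 smallest p of each list, Usp18 and Kit. Markers, genes listed at 0, Gm7897 and Cadm3 were named after their values were seen. The results of some genes that the rule would name are not reported here.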

Additional observations from a re-analysis of the deposited data

How the results depend on the processing

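No Ifi200 cluster gene passed the threshold under any alternative run, in either direction. Of all genes, library weights called 3.82% higher and 2.54% lower. Without tamoxifen 1, DESeq2 called 1.26% and 0.410%, and edgeR 0.373% and 0.0243%. The log2 fold changes of the 4 Ifi200 cluster genes tested were not stable in sign. Leaving out 1 library at a time gave -0.90 to 0.064 for Ifi203, -1.06 to -0.086 for Ifi204, -1.75 to 0.41 for Ifi209 and -1.09 to -0.20 for Mndal, and 0 to 3 genes whose groups did not overlap with tamoxifen lower, the 3 being without tamoxifen 2. The positive values of Ifi203 and Ifi209 were those without tamoxifen 1. DESeq2 without tamoxifen 1 gave 0.24 for Ifi203 and 0.42 for Ifi209, and edgeR without it 0.24 and 0.43. GC correction gave 0.39 for Ifi203, 0.051 for Ifi204 and 0.037 for Mndal. Library weights, which set tamoxifen 1 at 0.038, gave 0.26 for Ifi209 and kept the other 3 below 0. Under them Mndal was at -0.55, with a 95% interval from -1.04 to -0.061 that leaves out 0. Its unadjusted p was 0.030 and its adjusted p 0.167 from limma's fit across all genes. With these weights 2872 of the 12298 genes tested had an unadjusted p under 0.05. Why the log2 fold changes of the 4 genes moved between settings was not tested. The median of the 4 genes ranged over all libraries from -0.59 to -0.23 by tool, scaling, weights, filter and pseudocount, and was 0.044 after GC correction. Ifi207 and Ifi211 had at most 10 reads in a library, and what difference could be detected in them at this depth was not tested. DESeq2 without tamoxifen 1 gave Ifi207 a log2 fold change of 2.82, with its oil reads at or under the floor. Its unadjusted p from DESeq2 was 0.0497, with no adjusted p, and 1269 genes had an unadjusted p under 0.05 at that setting.

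Same-numbered libraries did not deviate together over all genes (correlations of -0.024, 0.061 and -0.15). These correlations rest on 3 libraries per group, with tamoxifen 1 standing apart. They cannot tell whether same-numbered samples were handled as pairs. With a replicate block the log2 fold changes stayed -0.30, -0.57, -0.97 and -0.61 for Ifi203, Ifi204, Ifi209 and Mndal, with adjusted p of 0.731 to 0.812 from limma. GC correction with the replicate block gave 0.39, 0.051 and 0.037 for Ifi203, Ifi204 and Mndal.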
